A study of Mus musculus with 12 samples.

Results

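Genes of inflammatory cell death were followed in DC2.4, an immortal line derived from mouse dendritic cells, after treatment with extracellular vesicles shed by T cells. The 10 genes were Zbp1, Ripk1, Ripk3, Mlkl, Casp8, Fas, Casp1, Casp4, Gsdmd and Pycard. They were chosen by symbol, with earlier results of these data known, and each matched 1 row of a count table of 42687 Ensembl genes. Shares of all tested genes, given below beside counts of these genes, are thus a description and not a test. All 10 genes were found, and 9 carried enough counts to be tested among 13261 genes. Ripk3 did not.

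The 12 libraries formed 4 groups of 3, all from wild-type DC2.4 cells. Vesicles of activated T cells (ATEV) were given at 15 µg/mL. The same dose was given after pretreatment with Baseline-ZERO DNase, an enzyme that degrades DNA (DNase-treated ATEV). Vesicles of non-activated, or resting, T cells (NTEV) were given at 30 µg/mL, and the controls had only phosphate-buffered saline (PBS). A note of 5 µg/mL of vesicle DNA stands beside the NTEV dose and may cover ATEV too. NTEV and ATEV thus differed in vesicle dose. The procedure was repeated 3 times per the labels, which may mean rounds on the same cells or separate experiments. Whether replicate libraries are separate cultures is not stated, so p-values cover only how far these libraries vary, and that variation may be technical.

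Pyroptosis and necroptosis are lytic forms of cell death that release inflammatory contents. In pyroptosis, inflammasome sensors assemble the adaptor ASC, encoded by Pycard, and activate caspase-1, whereas mouse caspase-11, encoded by Casp4, responds to cytosolic lipopolysaccharide; both caspases cleave gasdermin D (Gsdmd), whose amino-terminal part forms membrane pores. In necroptosis, RIPK1 or the Z-nucleic acid sensor ZBP1 engages RIPK3, which phosphorylates the pore-forming executioner MLKL, and caspase-8, which also carries the signal of the death receptor FAS, holds this route in check. Dendritic cells use inflammasomes to mature interleukin-1 family cytokines, and several of these genes, Zbp1 and Casp4 among them, are known interferon targets in mouse cells.

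Promoter sequences of 8 of the 10 genes were found in RefSeq (build GRCm38.p6, 250 bases before and 50 after the start site). Those of Zbp1 and Gsdmd were not found. The windows of Fas, of Casp1 and of 1 of 2 starts of Casp4 are shown as examples of genes that moved, as Pycard also did. Of the 2 starts of Ripk1, 1 is shown because it holds both motifs searched while the gene did not pass any test. They are written 5′ to 3′ along the gene's strand, with capitals marking matches to 2 copies of GAAA with any 2 bases between them, as in an interferon-stimulated response element, or to TTCNNNGAA, the letters of a gamma-activated site, searched on both strands.
Fas (chr19:34290409-34290708, plus strand): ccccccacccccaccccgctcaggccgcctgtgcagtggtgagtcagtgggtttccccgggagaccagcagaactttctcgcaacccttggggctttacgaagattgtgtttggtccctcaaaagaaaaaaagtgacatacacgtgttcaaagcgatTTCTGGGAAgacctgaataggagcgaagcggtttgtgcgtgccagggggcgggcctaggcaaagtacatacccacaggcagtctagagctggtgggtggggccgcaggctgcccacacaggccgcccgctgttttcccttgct
Casp4 (chr9:5308599-5308898, plus strand): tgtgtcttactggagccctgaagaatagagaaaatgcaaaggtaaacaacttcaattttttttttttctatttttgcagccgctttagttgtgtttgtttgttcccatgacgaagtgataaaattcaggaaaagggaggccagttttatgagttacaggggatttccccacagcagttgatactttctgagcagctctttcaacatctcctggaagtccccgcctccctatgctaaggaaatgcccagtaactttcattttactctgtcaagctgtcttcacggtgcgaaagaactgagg
Casp1 (chr9:5298267-5298566, plus strand): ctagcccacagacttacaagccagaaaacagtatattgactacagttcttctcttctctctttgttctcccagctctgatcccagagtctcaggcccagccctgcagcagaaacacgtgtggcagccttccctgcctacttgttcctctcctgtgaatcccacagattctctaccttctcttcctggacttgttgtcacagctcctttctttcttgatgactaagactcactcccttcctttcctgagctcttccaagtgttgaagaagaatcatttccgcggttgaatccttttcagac
Ripk1 (chr13:34002624-34002923, plus strand): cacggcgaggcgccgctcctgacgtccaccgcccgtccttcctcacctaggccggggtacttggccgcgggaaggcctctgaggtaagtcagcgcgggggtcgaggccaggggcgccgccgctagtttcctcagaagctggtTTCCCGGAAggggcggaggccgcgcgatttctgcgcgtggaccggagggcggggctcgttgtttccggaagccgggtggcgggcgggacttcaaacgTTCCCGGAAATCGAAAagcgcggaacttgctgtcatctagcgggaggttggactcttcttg
The Fas promoter held 1 match, TTCTGGGAA, that began 93 bases before the start site. In the Ripk1 promoter, TTCCCGGAA began 108 and 11 bases before the start site, and the later copy overlapped GAAATCGAAA, which began 5 bases before that site. No match was found in the windows of Casp4, Casp1, Pycard, Casp8, Mlkl or Ripk3, or in that of the other Ripk1 start. The paired GAAA occurred in 3.44%, TTCNNNGAA in 8.3% and both in 0.454% of 32851 promoter windows of this length. These matches describe letters only, and neither a match nor its absence shows whether a factor binds.

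Libraries held 19.4 to 30.4 M counts (1 M is 1e+06 counts). On the first principal component of all tested genes, which carried 34.9% of the variance, the DNase-treated ATEV and NTEV libraries numbered 1 (30.4 and 21.5) fell within the PBS span (14.6 to 41.8), apart from the others of their groups (-4.41 and -9.81 for DNase-treated ATEV, -41.7 and -15 for NTEV). Of 13 dendritic cell markers, 6 averaged at least 1 CPM in each group, while Clec9a had no counts and Flt3 stayed at or below 0.144 CPM. Their summed levels were 583 to 696 CPM with ATEV, 538 to 677 with DNase-treated ATEV, 477 to 571 with NTEV and 468 to 528 with PBS. Ptprc, a gene of leukocytes in general and not of dendritic cells alone, was the largest part of these sums, with group means of 256 to 300 CPM. All 7 macrophage markers were above 1 CPM. Summed macrophage marker levels were 4587 to 7445 CPM with ATEV, 3062 to 3389 with DNase-treated ATEV, 4754 to 5423 with NTEV and 3321 to 3860 with PBS. Lyz2 carried most of that difference (means of 3866, 1358, 2853 and 1662 CPM in the same order of groups). In that order Csf1r averaged 558, 463, 470 and 556 CPM, and Fcgr1 110, 72.3, 45.5 and 66.0 CPM. The part of these differences in the results below was not tested. Of 15 T cell markers, Cd28 and Lck alone exceeded 1 CPM, and Cd3e, Cd8a, Trbc1 and Trbc2 had no counts in any library. The summed T cell markers ran from 43.2 to 62.2 CPM with ATEV and 52.9 to 59.7 with DNase-treated ATEV. They ran from 34.8 to 52.5 CPM with NTEV and 59.5 to 102 with PBS. Cd28 was most of these sums, with means of 40.66, 44.49, 34.4 and 72.15 CPM in the same order of groups. Lck instead had its lowest mean with PBS (11.7, 11.15, 8.998 and 7.701 CPM in that order). In bulk libraries such as these, fewer cells that express a gene and less RNA per cell cannot be told apart.

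ATEV against PBS measures the response to the vesicles that activated T cells shed. In it, 6 of the 9 tested genes rose and none fell: Zbp1, Casp4, Fas, Casp1, Pycard and Gsdmd. The inflammasome adaptor, both inflammatory caspases and their gasdermin substrate were thus all higher, whereas the necroptosis kinase Ripk1, the executioner Mlkl and Casp8 did not pass the test. Among all tested genes 3.32% were called higher and 1.42% lower in this comparison. Levels are given as TMM-scaled CPM (counts per 1e+06). A gene was called at an adjusted p under 0.05 in edgeR's quasi-likelihood test with Benjamini-Hochberg adjustment over all 13261 genes, the source of every adjusted p unless another tool is named. Zbp1 passed the filter on low counts only through its ATEV and DNase-treated ATEV libraries. The median log2 fold change was 0.80 over the 9 tested genes and 0.03 over all tested genes.

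Zbp1, which senses Z-form nucleic acids and recruits RIPK3, was nearly silent without ATEV. It had 7.36, 7.55 and 11.6 CPM in the ATEV libraries, against 0.280, 0.0939 and 0.216 CPM in the PBS libraries. The lowest ATEV library was far above the highest PBS library, and the PBS values rested on 14 counts in all. The log2 fold change was 5.43 ± 0.38 (SE, n = 3 per group; adjusted p = 4.40e-06), or 43.0-fold, and the call was kept without any 1 of the 6 libraries.

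**Figure D1:**
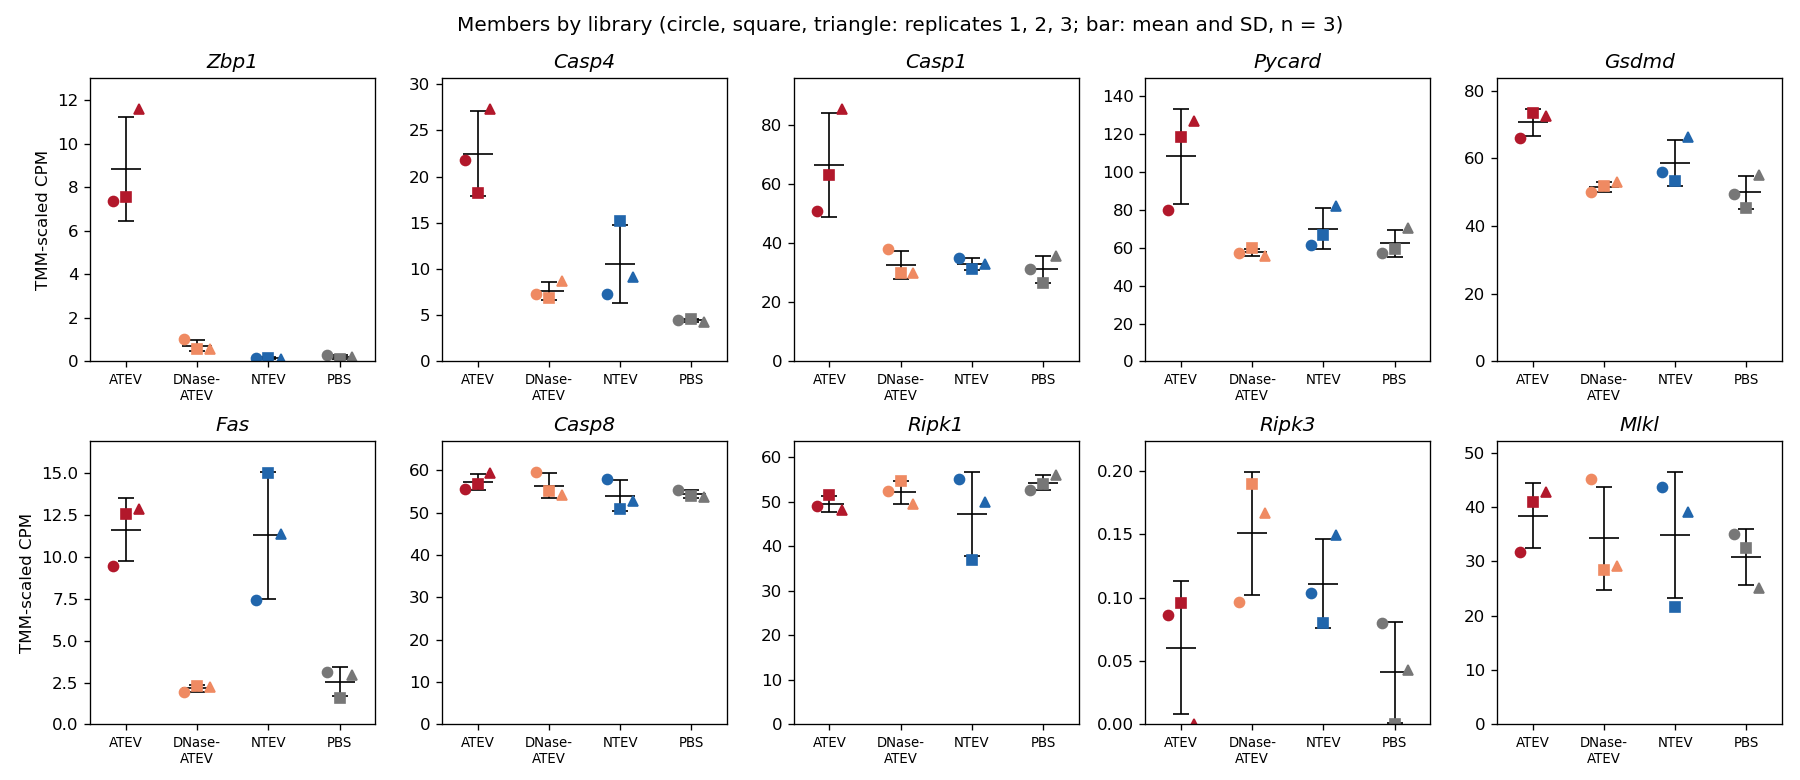
Level of each of the 10 genes in every library, in TMM-scaled CPM on a linear axis that starts at 0, with ATEV, DNase-treated ATEV, NTEV and PBS from left to right and the mean and SD of 3 libraries as bars. Zbp1, Casp1 and Casp4 were higher in every ATEV library than in any other library. Pycard and Gsdmd had their highest means with ATEV but overlapped with NTEV. Fas was high with ATEV and NTEV alike, and Ripk3 stayed below 0.2 CPM in every library.

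The caspases that process pyroptotic substrates rose as well. Casp4, the mouse caspase-11 gene, had 21.8, 18.2 and 27.4 CPM in ATEV libraries, against 4.51, 4.55 and 4.27 CPM in PBS libraries. The groups were well apart, and the PBS libraries hardly differed among themselves. Casp4 rose 5.05-fold (log2 fold change 2.34 ± 0.26, SE, n = 3 per group; adjusted p = 0.000275). Casp1, the interleukin-1-converting protease that ASC activates, had 50.8, 63.0 and 85.5 CPM with ATEV, against 31.2, 26.5 and 35.8 CPM with PBS. It rose 2.13-fold (1.09 ± 0.18, SE; adjusted p = 0.00475), and ATEV replicate 3 was the highest library for Casp1, Casp4, Zbp1 and Pycard. Both caspase calls were kept whichever of the 6 libraries was left out (largest adjusted p 0.0404 for Casp1 and 0.00352 for Casp4).

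Pycard and Gsdmd rose by smaller steps. Pycard, which encodes the speck-forming adaptor ASC, had 79.8, 119 and 127 CPM in ATEV libraries, against 57.5, 59.3 and 70.4 CPM in PBS libraries. Gsdmd, the pore-forming substrate, had 66.0, 73.4 and 72.5 CPM with ATEV, against 49.5, 45.4 and 55.1 CPM with PBS. Neither gene's groups overlapped. The changes were 1.74-fold for Pycard (0.80 ± 0.17 on the log2 scale, SE, n = 3 per group; adjusted p = 0.0195) and 1.41-fold for Gsdmd (0.50 ± 0.12; adjusted p = 0.0315). Both calls were lost without ATEV replicate 2 (adjusted p = 0.0904 for Pycard and 0.123 for Gsdmd), ATEV replicate 3 (0.0715 and 0.0773), PBS replicate 1 (0.0848 and 0.106) or PBS replicate 2 (0.0943 and 0.156).

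Fas, the death receptor that recruits FADD and caspase-8, rose 4.52-fold with ATEV. The libraries stood at 9.47, 12.6 and 12.9 CPM with ATEV, against 3.16, 1.55 and 2.97 CPM with PBS. The log2 fold change was 2.18 ± 0.30 (SE, n = 3 per group; adjusted p = 0.00103), kept in all 6 fits that left out 1 library. Fasl, the gene of its ligand, had no counts in any of the 12 libraries, which allows a level of up to 0.011 CPM over all libraries, by counting error only.

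Of the other necroptosis genes, Ripk1 and Mlkl did not pass the test, nor did Casp8, and Ripk3 had too few counts to be tested. Ripk1, the kinase that scaffolds the TNF receptor complex, had 48.0 to 51.6 CPM with ATEV, against 52.7 to 56.1 CPM with PBS; the ranges did not overlap, but the log2 fold change of -0.13 ± 0.13 (SE, n = 3 per group) did not pass (adjusted p = 0.548). Mlkl, the membrane-rupturing pseudokinase, had 31.6 to 42.7 CPM with ATEV, against 25.0 to 35.1 CPM with PBS (0.32 ± 0.25, adjusted p = 0.431). Casp8, the initiator protease, had 55.7 to 59.4 CPM with ATEV, against 53.8 to 55.5 CPM with PBS (0.07 ± 0.10, adjusted p = 0.658). Counting these too, 7 of the 9 tested genes were higher and 1 lower in every ATEV library than in every PBS library, where 16.3% and 16.8% of all tested genes were.

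Ripk3, the kinase that phosphorylates MLKL, was hardly detected in any group. Its counts were 2, 2 and 0 with ATEV, 2, 4 and 4 with DNase-treated ATEV, 3, 2 and 3 with NTEV, and 2, 0 and 1 with PBS. Pooled over the 12 libraries, 25 counts made 0.0917 CPM, with an exact Poisson 95% interval of 0.0594 to 0.135 CPM for counting error only. No difference between groups was detectable at this depth. In a fit with no filter on low counts, the adjusted p for Ripk3 was 0.894 for ATEV against PBS, and between 0.678 and 0.951 in the other 5 comparisons.

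With DNase-treated ATEV the question was what remained of that response. By edgeR 0 of the 9 tested genes were called against PBS, and 0% of all tested genes were, higher or lower. Other fits called some genes, none of them among the 9. These were 35 of 13261 with DESeq2 and 47 of 23092 in edgeR with no filter on low counts. A replicate block in edgeR gave 1 of 13261. Without DNase-treated ATEV replicate 1, edgeR called 8 of 13541, and without PBS replicate 1 it called 2 of 13479. Of the 9 genes, 2 had an unadjusted p under 0.05, as did 5.96% of all tested genes, and DESeq2 and limma-voom each called 0. Those 2 were Zbp1 and Casp4, whose libraries did not overlap with PBS. Zbp1 had 1.01, 0.568 and 0.584 CPM with DNase-treated ATEV, against 0.280, 0.0939 and 0.216 CPM with PBS, that is, 47 counts against 14 (log2 fold change 1.82 ± 0.43, SE, n = 3 per group; adjusted p = 0.412). Casp4 had 7.27, 6.87 and 8.68 CPM, against 4.51, 4.55 and 4.27 CPM with PBS (0.78 ± 0.26; adjusted p = 0.708). These 2 of the 9 tested genes were higher without overlap and none was lower, as were 7.69% and 5.68% of all tested genes. The other tested genes lay within 0.26 of PBS on the log2 scale, with Fas at 1.93, 2.27 and 2.25 CPM, inside its PBS range of 1.55 to 3.16 CPM (-0.26 ± 0.31; adjusted p = 0.866).

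ATEV and DNase-treated ATEV were given at the same vesicle dose, and comparing them tests the difference directly. Zbp1, Fas, Casp4, Casp1 and Pycard were higher with intact vesicles and none of the 9 tested genes was called lower, while 1.32% of all tested genes were called higher and 0.143% lower. Zbp1 averaged 8.84 ± 2.4 CPM with ATEV and 0.721 ± 0.251 CPM with DNase-treated ATEV (SD, n = 3 each), which is 12.2-fold (3.61 ± 0.33 on the log2 scale, SE; adjusted p = 6.54e-05). Fas averaged 11.6 ± 1.88 CPM with ATEV and 2.15 ± 0.195 CPM with DNase-treated ATEV (SD, n = 3 each), which is 5.39-fold (2.43 ± 0.30 on the log2 scale, SE; adjusted p = 0.00104). For Fas the DNase-treated libraries sat together at the PBS level.

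Among the pyroptosis genes, Casp4 averaged 22.5 ± 4.61 CPM with ATEV and 7.61 ± 0.953 CPM with DNase-treated ATEV (SD, n = 3 each; log2 fold change 1.56 ± 0.25, SE, adjusted p = 0.00526). Casp1 averaged 66.4 ± 17.6 CPM with ATEV and 32.6 ± 4.61 CPM with DNase-treated ATEV (1.03 ± 0.18, adjusted p = 0.0101), and Pycard 108 ± 25.1 and 57.7 ± 1.92 CPM in the same order of groups (0.91 ± 0.17, adjusted p = 0.0136). Gsdmd, at 66.0 to 73.4 CPM with ATEV against 49.98 to 53.1 CPM with DNase-treated ATEV, did not overlap but missed the threshold (0.45 ± 0.12, adjusted p = 0.0891), although it was called without ATEV replicate 1 (0.0461) and by DESeq2 (0.0104). The calls of Zbp1, Fas and Casp4 were kept whichever library was left out. The Casp1 call was lost without DNase-treated ATEV replicate 2 (adjusted p = 0.0769) or 3 (0.0720). The Pycard call was lost without ATEV replicate 2 (0.0797) or 3 (0.0723), or DNase-treated ATEV replicate 2 (0.0632) or 3 (0.0704). Without DNase-treated ATEV replicate 2 or 3, 3 of the 9 genes were called in place of 5. This comparison shares its ATEV libraries with the comparison against PBS, so they are not independent. Groups did not overlap for 6 of the 9 tested genes with ATEV higher and for none with ATEV lower, as for 10.1% and 10% of all tested genes.

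**Figure D2:**
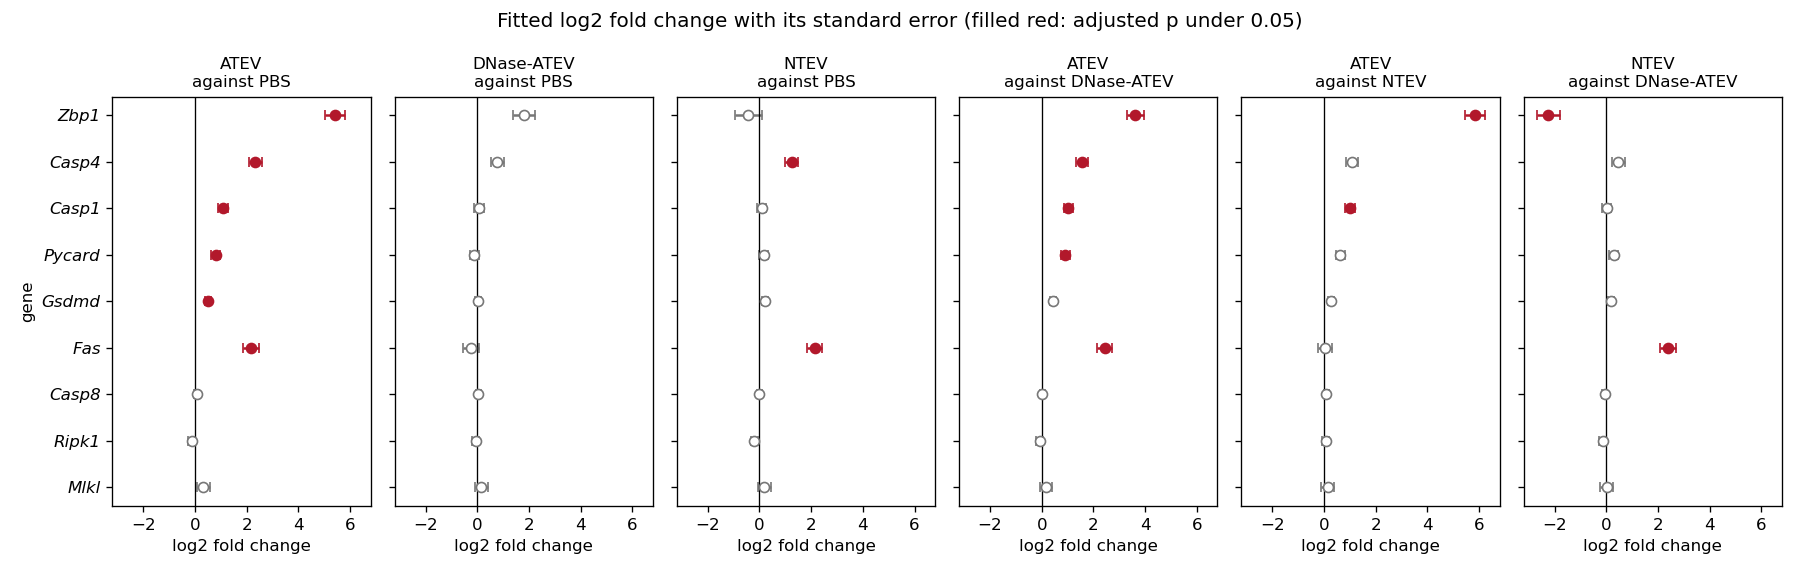
Log2 fold change of the 9 tested genes in 6 comparisons, the group named first over the group named second, with standard errors from edgeR's quasi-likelihood fit; filled red points passed an adjusted p under 0.05. Fas lies at 2.18 with ATEV and 2.13 with NTEV against PBS but at -0.26 with DNase-treated ATEV, whereas Zbp1 is called higher against PBS with ATEV and not with NTEV.

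NTEV against PBS shows what vesicles of resting T cells did, on the same PBS libraries. Fas and Casp4 rose and none of the 9 tested genes fell, with 1.7% of all tested genes called higher and 0.611% lower. Fas had 7.45, 15.1 and 11.4 CPM in NTEV libraries, against 3.16, 1.55 and 2.97 CPM in PBS libraries. The groups did not overlap, and the rise was 4.38-fold (log2 fold change 2.13 ± 0.30, SE, n = 3 per group; adjusted p = 0.00433), kept whichever library was left out. In a fit of the NTEV and PBS libraries alone, the adjusted p of Fas was 0.0579.

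Casp4 had 7.28, 15.3 and 9.10 CPM in NTEV libraries, against 4.51, 4.55 and 4.27 CPM in PBS libraries. NTEV replicate 2 stood well above the other NTEV libraries. The rise was 2.37-fold (1.25 ± 0.25 on the log2 scale, SE, n = 3 per group; adjusted p = 0.0254). It was kept in 1 of the 6 fits with a library left out, that without NTEV replicate 1 (adjusted p = 0.00471), and lost without NTEV replicate 2 (log2 fold change 0.86, adjusted p = 0.0824), NTEV replicate 3 (0.0660), PBS replicate 1 (0.0782), PBS replicate 2 (0.105) or PBS replicate 3 (0.116). limma-voom (0.0624) and a fit of the NTEV and PBS libraries alone (0.105) did not call it either. Without any of those 5 libraries, 1 of the 9 genes was called in place of 2.

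Zbp1 stayed at its floor with NTEV, at 0.173, 0.160 and 0.0994 CPM against 0.280, 0.0939 and 0.216 CPM with PBS, on 11 and 14 counts (log2 fold change -0.43 ± 0.54, SE, n = 3 per group; adjusted p = 0.695). Casp1 had 31.1 to 35.1 CPM with NTEV, within the PBS range of 26.5 to 35.8 CPM (0.09 ± 0.18, adjusted p = 0.822). Pycard had 61.3 to 82.3 CPM with NTEV, against 57.5 to 70.4 CPM with PBS (0.17 ± 0.17, adjusted p = 0.610), and Gsdmd 53.4 to 66.3 CPM with NTEV, against 45.4 to 55.1 CPM with PBS (0.23 ± 0.12, adjusted p = 0.307). Ripk1 and Mlkl varied most among NTEV libraries, with NTEV replicate 2 the lowest of all 12 for both, at 36.8 CPM for Ripk1 and 21.7 CPM for Mlkl. Neither passed (adjusted p = 0.439 and 0.728), nor did Casp8 (0.957). Fas and Casp4, 2 of the 9 tested genes, were higher in every NTEV library than in every PBS library and none was lower, against 12.8% and 11.1% of all tested genes.

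ATEV against NTEV sets the vesicles of activated T cells beside those of resting ones, at 15 against 30 µg/mL. Zbp1 and Casp1 were higher with ATEV and none was lower, with 0.875% of all tested genes called higher and 0.0603% lower. Zbp1 averaged 8.84 ± 2.4 CPM with ATEV and 0.144 ± 0.0391 CPM with NTEV (SD, n = 3 each), which is 57.7-fold (5.85 ± 0.40 on the log2 scale, SE; adjusted p = 4.61e-06). Casp1 averaged 66.4 ± 17.6 CPM with ATEV and 33.0 ± 2.01 CPM with NTEV (SD, n = 3 each; 1.01 ± 0.18, SE; adjusted p = 0.0141). The Casp1 call was lost without ATEV replicate 3 (adjusted p = 0.0551), NTEV replicate 2 (0.0538) or NTEV replicate 3 (0.0915), and in a fit of these 2 groups alone (0.0660). Without ATEV replicate 3 or NTEV replicate 3, 1 of the 9 genes was called in place of 2.

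Fas did not separate the vesicle types, at 9.47 to 12.9 CPM with ATEV and 7.45 to 15.1 CPM with NTEV (log2 fold change 0.04 ± 0.28, SE, n = 3 per group; adjusted p = 0.961). Casp4, at 18.2 to 27.4 CPM with ATEV against 7.28 to 15.3 CPM with NTEV, did not overlap and narrowly missed the threshold (1.09 ± 0.24, adjusted p = 0.0578). It was called without NTEV replicate 2 (log2 fold change 1.47, adjusted p = 0.00304), by DESeq2 (0.00246), by limma-voom (0.0309) and in a fit with no filter on low counts (0.00306). Pycard (0.63 ± 0.17, adjusted p = 0.129) was called without ATEV replicate 1 (0.0102), by DESeq2 (0.0308) and with no filter on low counts (0.0384). Zbp1, Casp1 and Casp4, 3 of the 9 tested genes, were higher without overlap and none was lower, against 8.61% and 7.16% of all tested genes.

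NTEV was last set against DNase-treated ATEV, at 30 against 15 µg/mL. Fas was higher with NTEV at 11.3 ± 3.80 CPM, against 2.15 ± 0.195 CPM with DNase-treated ATEV (SD, n = 3 each; log2 fold change 2.39 ± 0.30, SE, adjusted p = 0.00618). Zbp1 was lower with NTEV at 0.144 ± 0.0391 CPM, against 0.721 ± 0.251 CPM with DNase-treated ATEV (SD, n = 3 each; -2.24 ± 0.45, SE, adjusted p = 0.0424). Of all tested genes 0.468% were called higher and 0.211% lower. These 2 genes thus ordered the vesicle treatments in opposite ways, although the Zbp1 values rested on 11 counts with NTEV and 47 with DNase-treated ATEV. The Zbp1 call was kept without NTEV replicate 1 (0.0448) and lost without NTEV replicate 2 (0.121) or 3 (0.221), or DNase-treated ATEV replicate 1 (0.121), 2 (0.146) or 3 (0.121). It was also lost with a replicate block (adjusted p = 0.0649), with limma-voom (0.0891) and in a fit of these 2 groups alone (0.141). The Fas call was lost without DNase-treated ATEV replicate 2 (adjusted p = 0.0550), which left 0 of the 9 genes called, and in the fit of these 2 groups alone (0.0766). Without DNase-treated ATEV replicate 1 or 3, or NTEV replicate 2 or 3, 1 gene was called. Fas, Gsdmd and Pycard, 3 of the 9 tested genes, were higher and Zbp1 alone lower without overlap, against 8.45% and 7.74% of all tested genes.

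Across the 4 groups, the 6 genes that rose with ATEV fell into different orders. Zbp1 levels descended from ATEV through DNase-treated ATEV to PBS and NTEV; ATEV differed from all others and NTEV from DNase-treated ATEV, while the steps from DNase-treated ATEV to PBS and from PBS to NTEV did not pass. Casp4 descended from ATEV through NTEV and DNase-treated ATEV to PBS, and no step between neighbours in that order passed, although ATEV passed over PBS and over its DNase-treated form, and NTEV passed over PBS. Casp1 had ATEV at the top and the other groups between 31.1 and 33.0 CPM on average. Fas had ATEV and NTEV together above PBS and DNase-treated ATEV, at 11.6, 11.3, 2.56 and 2.15 CPM. Pycard and Gsdmd had ATEV at the top and NTEV next, a step that passed for neither gene.

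Levels of different genes were compared per length, as mean CPM per kb of merged exon in GENCODE M21, an annotation that need not be the one used for counting. There, Ripk1 shares exon bases with Serpinb6a (241 on the opposite strand) and the pseudogene Gm17084 (511), and Pycard with Gm45205 (485, opposite strand); no source used here gives the strand setting of the counting, and part of their counts may belong to these neighbours. In PBS cells Gsdmd (21), Casp1 (20.8), Casp8 (18.8), Pycard (16.4) and Mlkl (13.4 CPM per kb) were the higher genes. Ripk1 (6.5), Fas (1.24) and Casp4 (1.20 CPM per kb) lay below them, and Zbp1 (0.0556) and Ripk3 (0.0179 CPM per kb) were lowest. With ATEV, Casp1 reached 44.4 CPM per kb, the top of the 10 genes, Casp4 6.05 and Zbp1 2.50 CPM per kb. In every group the MLKL gene was expressed and the gene of its activating kinase, Ripk3, stood at 0.0658 CPM per kb or less.

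**Figure D3:**
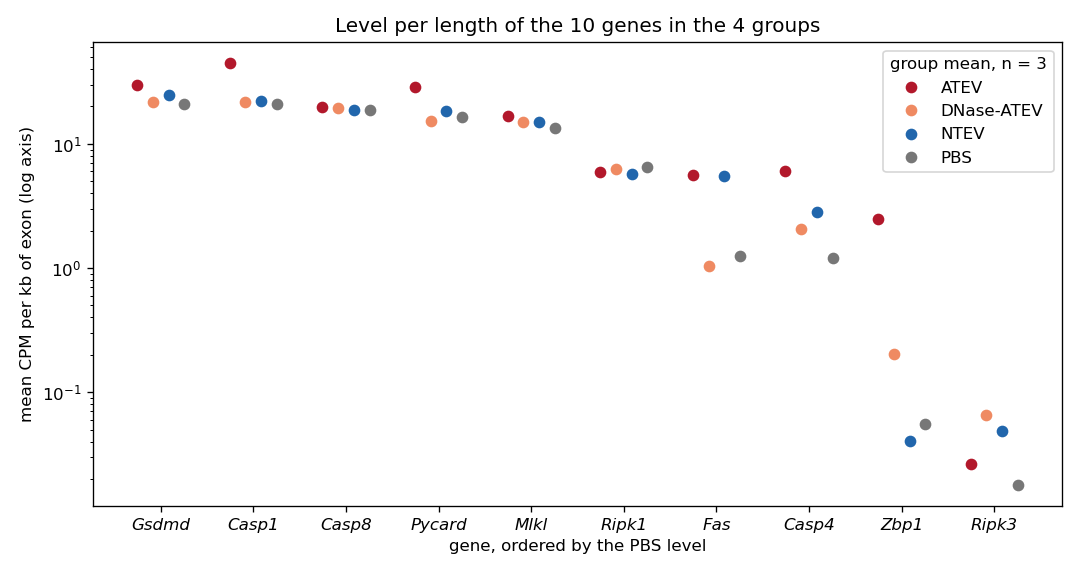
Mean level of each gene per kb of merged exon, in CPM per kb on a log axis, with a dot for each group mean (n = 3) and genes ordered by their PBS level. Ripk3 is lowest of the 10 genes in PBS at 0.0179 CPM per kb, and Zbp1 reaches 2.50 CPM per kb with ATEV.

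The patterns most like the 4 genes with the smallest adjusted p were looked up by Pearson's r of log2 CPM over the 12 libraries, as a description across libraries that share treatments. Zbp1 was closest to Gbp2 (0.987), Gbp3 (0.978) and Oasl2 (0.976). Casp1 was closest to Ly6a (0.976), Psmb8 (0.976) and Psme2 (0.974), and Casp4 to H2-Q4 (0.967), H2-D1 (0.955) and Kcmf1 (0.954). Fas was closest to Lpcat2 (0.973), Ctsd (0.965) and Mab21l3 (0.950). Among the members, r was 0.901 between Zbp1 and Casp1, 0.916 between Gsdmd and Pycard, and 0.390 between Zbp1 and Fas.

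Next, 4 lists, also chosen with earlier results of these data known, placed these genes in their pathways. Inflammasome sensors, gasdermins and interleukin-1 family genes had 17 of 25 members tested. With ATEV against PBS, 2 rose and none fell, where 3.32% of all tested genes were called higher and 1.42% lower (median log2 fold change 0.34 in the list and 0.03 over all tested genes). They were Naip5, a sensor of bacterial flagellin with close copies in the genome among which reads could be split, at 27.7 ± 5.11 CPM with ATEV and 15.1 ± 3.5 CPM with PBS (SD, n = 3 each; 0.88 ± 0.22, SE, adjusted p = 0.0420), and Il18, a substrate of caspase-1, at 6.90 ± 3.00 and 2.86 ± 0.266 CPM in the same order (1.27 ± 0.32, adjusted p = 0.0421). The Il18 call was kept without ATEV replicate 1 alone (0.0225) and lost without ATEV replicate 2 (0.0778) or 3 (0.126), or PBS replicate 1 (0.154), 2 (0.136) or 3 (0.0742), and with limma-voom (0.0547). That of Naip5 was lost without ATEV replicate 1 (0.0671) or 2 (0.152), or PBS replicate 1 (0.160) or 2 (0.17). The sensors Nlrp3 (0.32 ± 0.13, adjusted p = 0.136) and Aim2, which binds cytosolic DNA (0.34 ± 0.16, adjusted p = 0.200), did not pass. Il1b, the other main substrate of caspase-1, had 11 counts in the ATEV group, 5 with DNase-treated ATEV, 8 with NTEV and 2 with PBS.

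In this list 1 member was called with NTEV against PBS, where 1.7% of all tested genes were called higher and 0.611% lower. It was Il1a, an interleukin-1 cytokine that passed the filter on low counts only through its NTEV libraries and could not be tested without NTEV replicate 1, at 44 counts with NTEV against 6 with PBS (log2 fold change 2.73 ± 0.60, SE, n = 3 per group; adjusted p = 0.0348), a call kept in none of the fits with a library left out in which it could be tested (adjusted p from 0.0577 without NTEV replicate 2, through 0.0690 without PBS replicate 3, where the log2 fold change was 3.63, 0.116 without PBS replicate 2 and 0.118 without PBS replicate 1, to 0.147 without NTEV replicate 3). It was also lost with the replicate block (0.0508) and in a fit of only these groups (0.118). No member was called in the other 4 comparisons.

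The list of TNF receptor 1 complex and necroptosis regulators had all 24 members tested and 0 called by edgeR with ATEV against PBS (median 0.18). Of the 24, 6 had an unadjusted p under 0.05, for which the share over all tested genes is not given here. DESeq2 called 3, limma-voom 0 and edgeR with a replicate block 4. Over all 13261 tested genes these fits called 1510, 527 and 1440 in the same order. With NTEV against PBS, 2 rose and none fell (1.7% and 0.611% of all tested genes): Ikbkg, the scaffold NEMO of the IKK complex, at 96.3 ± 12.9 CPM with NTEV and 63.5 ± 2.38 CPM with PBS (SD, n = 3 each; 0.60 ± 0.13, SE, adjusted p = 0.0287), and Tnip1, a ubiquitin-binding partner of A20, at 101 ± 11.7 and 66.6 ± 5.00 CPM in the same order (0.60 ± 0.12, adjusted p = 0.0200). The Ikbkg call was kept without NTEV replicate 1 (0.00936) and lost without NTEV replicate 2 (0.0583) or 3 (0.151), or PBS replicate 1 (0.0942), 2 (0.113) or 3 (0.108). That of Tnip1 was lost without NTEV replicate 2 (0.0513) or 3 (0.0660), or PBS replicate 2 (0.115) or 3 (0.127). Both were lost in a fit of only these groups (0.0823 for Ikbkg and 0.0798 for Tnip1). With ATEV, where edgeR called neither against PBS, Ikbkg had 73.4, 94.3 and 90.9 CPM. Its PBS libraries had 60.7, 64.6 and 65.0 CPM, without overlap. Tnip1 had 73.95, 76.6 and 64.7 CPM with ATEV, which overlapped with PBS. No member was called in the other 4 comparisons.

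Death receptors, ligands and proximal signalling had 15 of 20 members tested. With ATEV against PBS, 2 rose and none fell (3.32% and 1.42% of all tested genes), among them the TNF receptor Tnfrsf1b at 244 ± 32.6 CPM with ATEV and 149 ± 9.43 CPM with PBS (SD, n = 3 each; 0.72 ± 0.15, SE, adjusted p = 0.0152). The list median was 0.04. The Tnfrsf1b call was lost without ATEV replicate 2 (0.0832), PBS replicate 1 (0.0739) or PBS replicate 2 (0.0759). With NTEV, where edgeR called none of this list against PBS, Tnfrsf1b had 204, 250 and 219 CPM. Its PBS libraries had 139, 150 and 158 CPM, so these groups did not overlap either. The caspase-8 partners showed Cflar, the inhibitor c-FLIP, at 94.9 ± 22.1 CPM with ATEV and 49.1 ± 7.49 CPM with PBS (0.95 ± 0.26, adjusted p = 0.0544), and the adaptor Fadd at 11.1 ± 0.907 and 13.2 ± 1.07 CPM (-0.25 ± 0.16, adjusted p = 0.315). Cflar had 52.1, 128 and 93.4 CPM with NTEV, which overlapped with PBS. Tnf was called with ATEV against DNase-treated ATEV, at 31.04 ± 4.311 and 12.1 ± 3.12 CPM (1.36 ± 0.29, adjusted p = 0.0319). It was lost without ATEV replicate 2 (0.0641) or 3 (0.115), or DNase-treated ATEV replicate 1 (0.102), 2 (0.0541) or 3 (0.117). Tnfrsf21, or death receptor 6, was called with NTEV against DNase-treated ATEV, at 46.4 ± 2.62 and 30.2 ± 1.06 CPM (0.62 ± 0.12, adjusted p = 0.0424). It was lost without NTEV replicate 2 (0.105) or 3 (0.235), or DNase-treated ATEV replicate 1 (0.103), 2 (0.196) or 3 (0.187), with the replicate block (0.0667) and in a fit of only these groups (0.113).

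Mitochondrial apoptosis genes had 23 of 25 members tested. With ATEV against PBS, 2 anti-apoptotic members rose and none fell (median 0.11), where 3.32% of all tested genes were called higher and 1.42% lower. Bcl2 stood at 29.3 ± 4.08 CPM with ATEV and 15.0 ± 0.523 CPM with PBS (SD, n = 3 each; 0.97 ± 0.22, SE, adjusted p = 0.025). Bcl2l1, which encodes BCL-XL, stood at 138 ± 15.8 CPM with ATEV and 88.4 ± 7.16 CPM with PBS (0.64 ± 0.14, adjusted p = 0.0248) and was called against DNase-treated ATEV as well (88.4 ± 11.02 CPM; 0.64 ± 0.14, adjusted p = 0.0428). Without ATEV replicate 2 or PBS replicate 1, 2 or 3 both calls against PBS were lost (adjusted p from 0.0674 to 0.109 for Bcl2 and from 0.0652 to 0.114 for Bcl2l1), and that of Bcl2l1 against DNase-treated ATEV was lost without ATEV replicate 2 (0.228) or 3 (0.0517), or DNase-treated ATEV replicate 1 (0.128) or 2 (0.184), with the replicate block (0.0521) and in a fit of only these groups (0.0730). By edgeR no further member of the inflammasome, TNF receptor 1 and mitochondrial lists was called in any of the 6 comparisons. Where edgeR called 0 members of a list, 0 to 6 had an unadjusted p under 0.05, DESeq2 called 0 to 4, limma-voom 0 and edgeR with the replicate block 0 to 4. Over all 13261 tested genes in these comparisons, DESeq2 called 35 to 1510, limma-voom 0 to 527 and the replicate block 1 to 1440. For an unadjusted p under 0.05, the share over all tested genes is given here only for DNase-treated ATEV against PBS (5.96%). In the other comparisons the unadjusted counts cannot be told from the general rate. With DNase-treated ATEV against PBS, all 3 tools called 0 in each of the 4 lists.

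**Figure D4:**
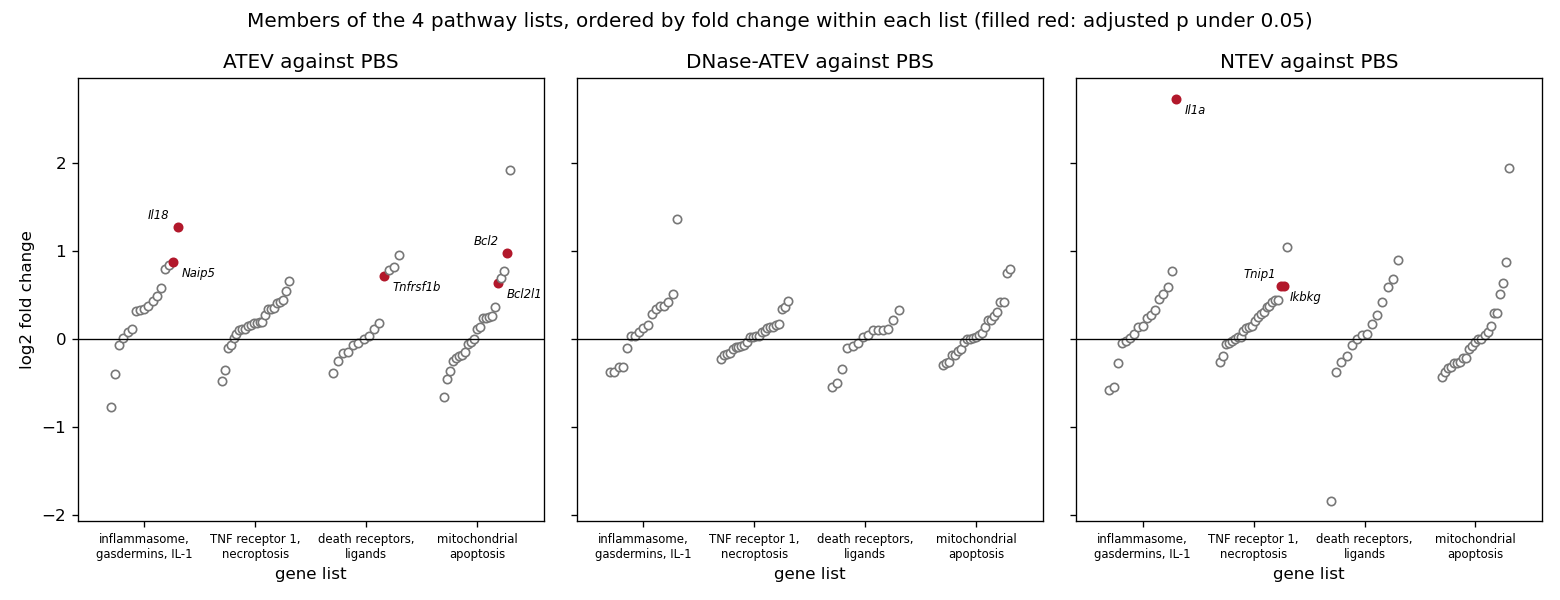
Log2 fold change of the tested members of 4 pathway lists (inflammasome and interleukin-1, TNF receptor 1 and necroptosis, death receptors, mitochondrial apoptosis) against PBS, ordered within each list; filled red points, with names, passed an adjusted p under 0.05. Of the death receptor list, 1 tested member is not drawn. With ATEV 5 of the genes drawn were called, with DNase-treated ATEV 0 and with NTEV 3.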

How the data were processed

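RNA of 12 DC2.4 libraries (TruSeq stranded mRNA, per the labels' protocols) was sequenced, and the authors deposited 1 table of raw counts per Ensembl gene. Per the submitters' processing notes, bcl2fastq 2.19, TopHat2 2.0.11 and Cufflinks 2.1.1 were used with build mm9. The counter, its annotation and its strand setting are not given in the sources used here. From the deposited counts, genes were filtered with filterByExpr (minimum count 10; 13261 of 42687 kept), scaled by TMM and tested with edgeR 4.0.16 (R 4.3.3) by the quasi-likelihood test, with 1 mean for each of 4 groups over all 12 libraries, 6 contrasts, and Benjamini-Hochberg adjustment over all tested genes, called at 0.05. Zbp1 passed the filter through the ATEV and DNase-treated ATEV groups, so its change was bound up with passing. Standard errors are the absolute log2 fold change over the root of F. Alternatives were DESeq2 1.42.0, limma-voom 3.58.1, other size factors, no filter, a replicate block, fits of only the groups compared and leaving out each library. For NTEV against DNase-treated ATEV all 3 same-numbered pairs of libraries had deviations from the group means correlated above 0.1 (0.619, 0.346 and 0.129). Of these, 2 matched their own number best. Deviations within groups of 3 libraries cannot settle whether the numbers pair samples, and the labels do not say so. Calls are therefore from the fit without pairing, with the replicate block as an alternative. Named were all 10 genes, per list and comparison up to 4 called genes ranked by adjusted p, and, for the 4 genes of the 10 with the smallest adjusted p, the 3 other genes with the highest correlation; Cflar, Fadd, Nlrp3, Aim2, Il1b and Fasl were added after their values were seen. The genes and lists were chosen with earlier results of these data known. Promoter sequences are RefSeq's, build GRCm38.p6. Totals of 19.4 to 30.4 M counts set the precision, and intervals and limits of detection cover counting error only. A withheld item among the list and marker genes is not reported here.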

Additional observations from a re-analysis of the deposited data

How the results depend on the processing

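The count of the 9 tested genes called with ATEV against PBS was 6 in every other fit and 4 to 6 with 1 library left out, and that with DNase-treated ATEV against PBS was 0 throughout. With NTEV against PBS it was 2, but 1 with limma-voom, 0 in a fit of only the groups compared, and 1 to 2 with 1 library left out. With ATEV against DNase-treated ATEV it was 5, but 6 with DESeq2, and 3 to 6 with 1 library left out. With ATEV against NTEV it was 2, but 4 with DESeq2, 4 with no filter on low counts, 3 with limma-voom, 1 with only the groups compared, and 1 to 3 with 1 library left out. With NTEV against DNase-treated ATEV it was 2, but 1 with limma-voom, 1 with the replicate block, 0 with only the groups compared, and 0 to 2 with 1 library left out. Calls over all genes tested in each fit moved too. ATEV against PBS had 628 (1510 with DESeq2, 527 with limma-voom). NTEV against PBS had 306 (209 with limma-voom, 19 with only the groups compared). ATEV against DNase-treated ATEV had 194 (495 with DESeq2). ATEV against NTEV had 124 (373 with DESeq2, 82 with only the groups compared). NTEV against DNase-treated ATEV had 90 (41 with the replicate block, 2 with only the groups compared). Fits of fewer libraries estimate the spread from fewer samples; the cause of the other differences was not tested.

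Of 790 alternative values of 66 fold changes, 662 kept their direction and side of the threshold, 93 lost a call, 9 gained one and 26 changed sign. The sign changed only for differences within 0.176 of 0 on the log2 scale. Casp8 with NTEV against PBS was 0.013 with no filter, and Mlkl with NTEV against DNase-treated ATEV was -0.00095 with limma-voom. With 1 library left out, the log2 fold changes with DNase-treated ATEV against PBS spanned -0.11 to 0.27 (Mlkl), -0.0022 to 0.080 (Casp8), -0.066 to 0.17 (Casp1) and -0.021 to 0.11 (Gsdmd). With NTEV against PBS they spanned -0.011 to 0.41 (Mlkl), -0.055 to 0.017 (Casp8) and -0.027 to 0.18 (Casp1). With ATEV against DNase-treated ATEV, Casp8 spanned -0.0081 to 0.074. With ATEV against NTEV they spanned -0.075 to 0.19 (Ripk1), -0.10 to 0.34 (Mlkl) and -0.19 to 0.32 (Fas). With NTEV against DNase-treated ATEV they spanned -0.26 to 0.0016 (Ripk1), -0.17 to 0.28 (Mlkl) and -0.051 to 0.15 (Casp1).

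In the 5 comparisons other than NTEV against DNase-treated ATEV, 3 of 15 same-numbered pairs had deviations correlated above 0.1 (range -0.382 to 0.519). Of these 15 pairs, 4 matched their own number best. Whether replicate numbers pair samples is not settled in any comparison. Of the counts of the 9 genes, the replicate block changed that for NTEV against DNase-treated ATEV, to 1. Depth limits Ripk3 in all groups, and Zbp1 outside the ATEV group.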
